A study of Mus musculus with 10 samples.

Results

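The enteroendocrine transcripts of the jejunal epithelium were followed in mice with an induced loss of MYO5B. They were the 10 genes Chga, Chgb, Sct, Cck, Gip, Gcg, Nts, Sst, Ghrl and Tph1, found by gene symbol among the 35275 genes of the deposited expression table. All 10 were present in the table, and all 10 passed the filter of a mean of at least 0.1 FPKM (fragments per kilobase of a gene, relative to all fragments counted on genes in that library) over the 10 libraries, which 15729 genes passed.

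Every mouse was an adult C57BL/6 male by its labels and carried VillinCreERT2, a tamoxifen-inducible Cre recombinase driven by the villin promoter of the intestinal epithelium, together with MYO5Bflox/flox alleles. Corn oil without tamoxifen was given to the 3 control mice, so tamoxifen itself also differed between control and knockout mice. The 4 MYO5B-knockout mice received a single 2 mg dose of tamoxifen and vehicle (0.1% BSA in PBS), and another 3 MYO5B-knockout mice received the same tamoxifen and intraperitoneal lysophosphatidic acid (LPA) at 3 mg/kg, given over 4 days. RNA of mechanically isolated jejunal epithelial cells was sequenced from 1 library per mouse. The labels give day 4 for every mouse, which is 4 days after tamoxifen in the knockout mice. One line of the description of LPA-treated mouse 1 names vehicle and another names LPA, and the mouse was placed by its title and by the line that gives the LPA dose.

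Enteroendocrine cells are scattered hormone-producing cells of the gut epithelium that arise from crypt progenitors and release peptides or serotonin on sensing nutrients. Chromogranin A and chromogranin B, encoded by Chga and Chgb, are granins, acidic proteins packed into the dense-core granules in which these hormones are stored. Subtypes of the cells are classically told apart by their main product, such as somatostatin in D cells, gastric inhibitory polypeptide in K cells, cholecystokinin in I cells, secretin in S cells and serotonin in enterochromaffin cells. In RNA of bulk epithelium, fewer cells of a type and less RNA per cell cannot be told apart.

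The libraries held 10949420 to 24470409 reads on genes, and the members between 19 and 5534 reads in a library. Fewer genes were detected in control mouse 2 (12242) and MYO5B-knockout mouse 3 (12601) than in the other 8 mice (17309 to 18267). Mitochondrial genes took 17.4% and 18% of their reads, against 1.98% to 3.5% in the others. Against the male label, Xist was detected in LPA-treated mouse 1 and MYO5B-knockout mouse 3, together with 0 reads on 4 genes of the Y chromosome. Myo5b measured 16.5, 32 and 26.1 FPKM in control mice 2, 4 and 5, 10.5 to 13.6 FPKM in the 4 MYO5B-knockout mice and 10.3 to 11.7 FPKM in the 3 LPA-treated mice, so every knockout library lay below every control library (log2 fold change -0.96, standard error 0.28, limma's adjusted p = 0.115 for MYO5B-knockout against control mice). With control mouse 2 and MYO5B-knockout mouse 3 left out Myo5b passed (-1.15, limma's adjusted p = 0.0185), as it did with median-ratio scaling (limma's adjusted p = 0.0203), edgeR (adjusted p = 0.0268) and DESeq2 (adjusted p = 1.24e-06). Epithelial keratin Krt8 was between 2594 and 4592 FPKM and Epcam between 628 and 1151 FPKM in all libraries, as the label of epithelial cells says. Vil1, another epithelial marker, was less even. It measured 217, 895 and 856 FPKM in control mice 2, 4 and 5, 69.3 FPKM in MYO5B-knockout mouse 3 and 107 FPKM in LPA-treated mouse 5.

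The DNA next to the transcription start of 2 members, Sst and Chgb, holds the cAMP response element, the letters TGACGTCA, which is bound by factors of the CREB family. Shown are Sst, the member that passed limma's test (adjusted p under 0.05) between control and MYO5B-knockout mice, Chgb and Chga. Chga holds the shorter searched motif TGACG but not the whole element, and its letters there run TGACGTAA. Gip is shown as the member with the largest fitted difference, and its window holds neither. Each sequence is the 250 bases before the RefSeq start on the GRCm38.p6 build, written 5′ to 3′ on the strand of the gene, with the motif in capitals. The windows are chr16:23890845-23891094 (minus strand) for Sst, chr2:132781392-132781641 (plus) for Chgb, chr12:102554691-102554940 (plus) for Chga and chr11:96024295-96024544 (plus) for Gip.
Sst: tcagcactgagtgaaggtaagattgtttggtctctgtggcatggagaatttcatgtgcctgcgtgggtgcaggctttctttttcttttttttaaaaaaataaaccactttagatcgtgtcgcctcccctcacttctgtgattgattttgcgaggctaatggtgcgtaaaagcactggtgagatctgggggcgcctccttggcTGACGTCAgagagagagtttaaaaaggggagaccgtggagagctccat
Chgb: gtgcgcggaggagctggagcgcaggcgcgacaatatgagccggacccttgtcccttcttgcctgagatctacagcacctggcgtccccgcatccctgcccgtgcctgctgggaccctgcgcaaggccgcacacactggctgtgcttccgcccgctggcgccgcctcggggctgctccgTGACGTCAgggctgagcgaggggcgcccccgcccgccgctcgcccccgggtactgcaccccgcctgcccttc
Chga: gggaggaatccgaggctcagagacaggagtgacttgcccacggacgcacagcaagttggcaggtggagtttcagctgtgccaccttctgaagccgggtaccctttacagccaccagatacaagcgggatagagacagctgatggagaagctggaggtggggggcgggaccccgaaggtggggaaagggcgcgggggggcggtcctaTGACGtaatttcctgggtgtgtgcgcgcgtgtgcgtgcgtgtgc
Gip: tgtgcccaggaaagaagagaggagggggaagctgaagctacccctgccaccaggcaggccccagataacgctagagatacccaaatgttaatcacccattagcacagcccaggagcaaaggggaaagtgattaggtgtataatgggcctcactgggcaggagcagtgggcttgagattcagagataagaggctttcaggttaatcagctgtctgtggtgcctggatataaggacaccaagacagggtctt

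The element lay from -48 to -41 before the start of Sst and from -72 to -65 before that of Chgb. Searched on both strands over windows that reach 50 bases past the start, TGACGTCA was in 1.79% of 32851 RefSeq promoters and in those of 2 of the 10 members. The 5 letters TGACG, which the longer motif contains, were in 20.8% of all promoters and in those of 6 members, namely Sst, Chgb, Chga, Cck, Nts and Tph1. The TATA box letters TATAAA were in 13.6% of all promoters and in those of Chga, Sct and Gcg, and the E-box CANNTG, read by the basic helix-loop-helix factors of this lineage, was in 72.3% of all promoters and in those of 9 members, all but Tph1. The RefSeq start of Chgb lay 364 bases from the gene start in the deposited table, and those of Sst and Gip were the same in both. These matches describe the windows only.

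In control mice the levels, which FPKM puts on a scale per gene length, spanned from 402 ± 319 FPKM (SD, n = 3) for Gip to 3.84 ± 1.69 FPKM (SD, n = 3) for Tph1. Gip, the incretin of K cells, was followed by Sct (secretin) at 270 ± 239 FPKM and Cck (cholecystokinin) at 108 ± 9.63 FPKM. Sst (somatostatin) came next at 76.5 ± 15.7 FPKM, then Chgb at 55.1 ± 4.41 FPKM and Chga at 38.1 ± 9.07 FPKM. Ghrl, which encodes ghrelin, stood at 28.7 ± 8.35 FPKM. Nts (neurotensin) and Gcg (proglucagon, the precursor of glucagon-like peptides) stood at 10.4 ± 6.16 and 8.7 ± 6.16 FPKM. Tph1, the first enzyme of serotonin synthesis outside the brain, was lowest. The ranges of neighbours in this order overlapped for Gip and Sct, Sct and Cck, Chga and Ghrl, Nts and Gcg, and Gcg and Tph1, and did not overlap for Cck and Sst, Sst and Chgb, Chgb and Chga, or Ghrl and Nts.

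In MYO5B-knockout mice the order differed. Sct stood first at 224 ± 188 FPKM (SD, n = 4), Gip second at 85.9 ± 63.8 FPKM, and Chgb, at 62.8 ± 15.9 FPKM, stood above Sst at 22.2 ± 4.6 FPKM. In LPA-treated MYO5B-knockout mice Sct was again first at 311 ± 161 FPKM (SD, n = 3), and Sst, at 56 ± 21.7 FPKM, stood between Chgb at 92 ± 21 FPKM and Ghrl at 35.9 ± 13.4 FPKM.

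**Figure D1:**
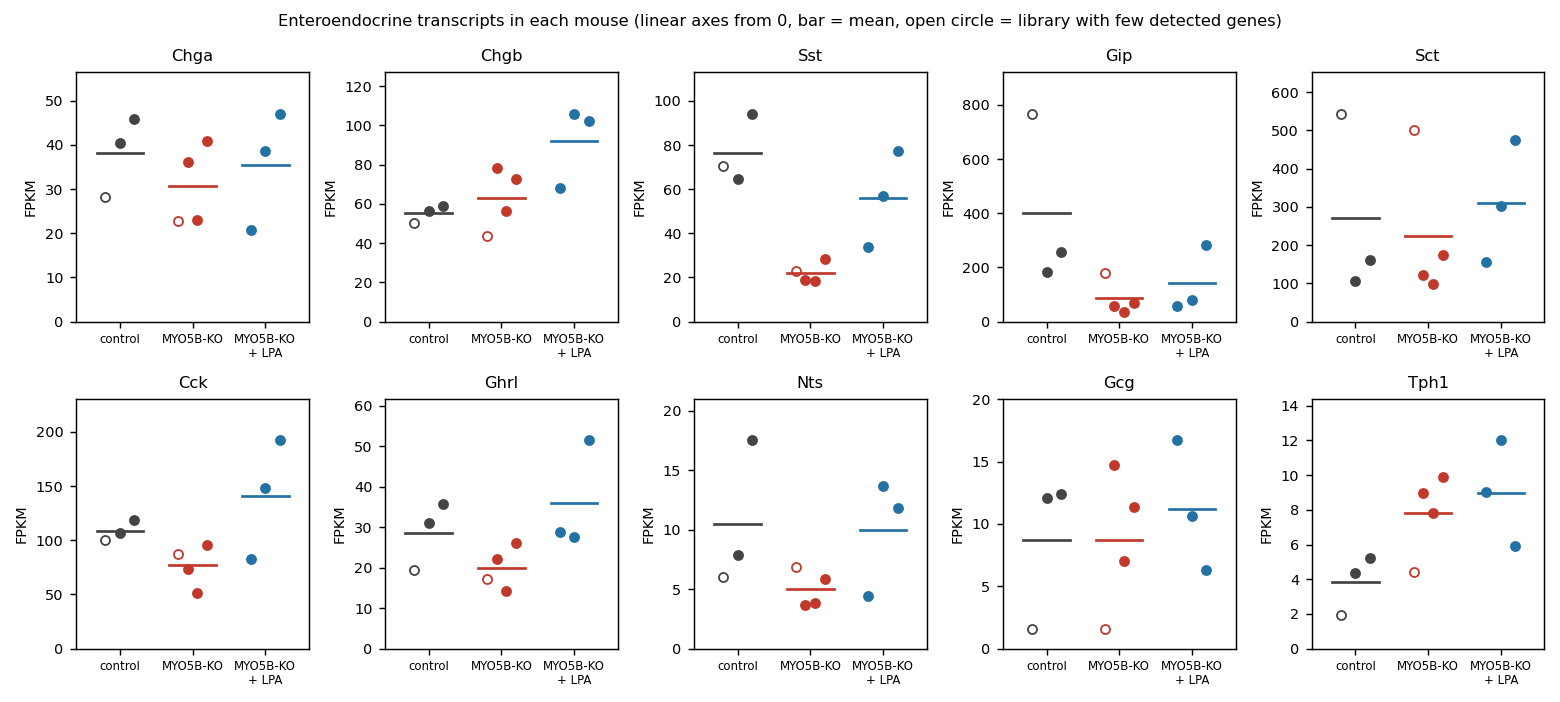
FPKM (vertical axes, linear from 0) of the 10 genes in each of the 3 control, 4 MYO5B-knockout (MYO5B-KO) and 3 LPA-treated MYO5B-knockout mice. Each circle is 1 mouse, bars are group means, and open circles are control mouse 2 and MYO5B-knockout mouse 3. The 4 MYO5B-knockout mice lie at 18.5 to 28.3 FPKM of Sst, below every other mouse, whereas the groups overlap for Chga, Sct and Gcg.

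The comparison of MYO5B-knockout with control mice asks how the hormone transcripts stand after MYO5B loss. Sst fell 3.44-fold on the fitted scale, and it was the 1 member of 10 that passed an adjusted p of 0.05. Tph1, Chgb and Gcg were the 3 members fitted higher, at log2 fold changes of 1.05, 0.15 and 0.08, and none of them passed. Gip was 4.6-fold lower in its fit and did not pass, and the granins Chga and Chgb differed by less than the spread between mice. Of all 15729 genes tested, 316 (2.01%) passed the same test, 177 of them higher and 139 lower in the MYO5B-knockout mice, against 223 higher and 375 lower after median-ratio scaling of the libraries. With control mouse 2 and MYO5B-knockout mouse 3 removed, 4.95% of genes passed, and Sst remained the 1 member among them. The median log2 fold change of the 10 members was -0.42, beside 0.29 for all genes tested.

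Somatostatin inhibits the release of many other gut hormones. Its gene Sst (ENSMUSG00000004366, chromosome 16 from 23889581 to 23890844, minus strand, GRCm38) measured 70.3, 64.8 and 94.3 FPKM in control mice 2, 4 and 5. In MYO5B-knockout mice 3, 5, 6 and 7 the values were 23, 18.8, 18.5 and 28.3 FPKM. Every MYO5B-knockout mouse thus lay below every control mouse, and the lowest control value was 64.8 FPKM against a highest MYO5B-knockout value of 28.3 FPKM. The log2 fold change was -1.78 (standard error 0.32, 95% interval -2.50 to -1.07, limma's adjusted p = 0.0259). Without control mouse 2 and MYO5B-knockout mouse 3 it was -1.86 (limma's adjusted p = 0.0391). The call was lost when control mouse 4, control mouse 5, MYO5B-knockout mouse 5 or MYO5B-knockout mouse 6 was left out, with log2 fold changes of -1.89, -1.62, -1.71 and -1.71 and limma's adjusted p between 0.0751 and 0.124. edgeR and DESeq2 on the recovered reads gave -2.02 and -2.04, with adjusted p-values of 0.0285 and 0.00028.

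The reads behind Sst numbered 465 to 989 in the control mice and 151 to 383 in the MYO5B-knockout mice. The 42 bases that encode the last 14 codons of the Sst reading frame, from which the hormone somatostatin-14 is cut, lie in exon 2 at chr16:23889732-23889773 (minus strand, GRCm38). They are given as the part of the transcript that carries the hormone itself.
Sst, last 14 codons: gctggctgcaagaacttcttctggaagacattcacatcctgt

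Gip (ENSMUSG00000014351, chromosome 11 from 96024545 to 96030831), whose product enhances insulin release after a meal, measured 768, 183 and 256 FPKM in control mice 2, 4 and 5. In MYO5B-knockout mice 3, 5, 6 and 7 it measured 179, 57.5, 36.4 and 70.4 FPKM. The groups did not overlap, by the narrow margin of control mouse 4 over MYO5B-knockout mouse 3, and in both groups the library with few detected genes held the highest value. The log2 fold change was -2.20 (standard error 0.70, 95% interval -3.74 to -0.66, limma's adjusted p = 0.134). It was -2.03 (limma's adjusted p = 0.103) without these 2 libraries, and on the recovered reads DESeq2 gave -2.52 with an adjusted p of 0.0414 and edgeR -2.52 with an adjusted p of 0.15.

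Cck, which drives gallbladder contraction and pancreatic enzyme release, measured 99.8, 107 and 119 FPKM in the control mice, against 86.9, 73.1, 51.5 and 96 FPKM in MYO5B-knockout mice 3, 5, 6 and 7. These groups did not overlap either, but the values of MYO5B-knockout mouse 7 and control mouse 2 nearly met (log2 fold change -0.53, 95% interval -1.27 to 0.21, limma's adjusted p = 0.447). Sst, Gip and Cck were thus the 3 members of 10 without overlap, a state found in 17.2% of all genes tested. Ghrl, an appetite hormone, measured 19.4, 30.9 and 35.7 FPKM in the control mice, against 14.2 to 26 FPKM in the MYO5B-knockout mice (log2 fold change -0.52, limma's adjusted p = 0.475). Nts, which slows gut motility and promotes fat uptake, measured 6.01, 7.84 and 17.5 FPKM in the control mice, against 3.65 to 6.83 FPKM in the MYO5B-knockout mice (log2 fold change -0.93, limma's adjusted p = 0.369). Both groups overlapped for these 2 genes.

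For the granins the fitted differences lay closer to 0. Chga (ENSMUSG00000021194, chromosome 12 from 102554969 to 102565027) measured 28.1, 40.5 and 45.8 FPKM in the control mice, against 22.8, 36.2, 23 and 40.8 FPKM in the MYO5B-knockout mice. Its log2 fold change was -0.33, and the 95% interval of -1.13 to 0.47 includes both a fall and a rise. Chgb (ENSMUSG00000027350, chromosome 2 from 132781278 to 132795079) measured 50.2, 56.3 and 58.8 FPKM in the control mice, against 43.4, 78.3, 56.6 and 72.8 FPKM in the MYO5B-knockout mice. Its log2 fold change was 0.15 (95% interval -0.47 to 0.78), and it turned to -0.14 when the libraries were scaled by the median of their ratios. That scaling moved the median over all genes, on the log2 scale, from 0.285 to 0.0387, so differences below about that shift have no fixed direction here.

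Tph1, the marker of enterochromaffin cells, measured 1.95, 4.33 and 5.23 FPKM in the control mice, against 4.43, 9, 7.81 and 9.92 FPKM in MYO5B-knockout mice 3, 5, 6 and 7. Only MYO5B-knockout mouse 3 lay within the control range (log2 fold change 1.05, 95% interval 0.07 to 2.04, limma's adjusted p = 0.254). Mast cells also express Tph1. The summed level of 10 mast cell markers was 2.93 to 10.7 FPKM in the control mice and 1.61 to 27.4 FPKM in the MYO5B-knockout mice, and the part of these cells in the Tph1 values was not tested. Sct, which stimulates bicarbonate secretion, stood at 544 FPKM in control mouse 2 and 502 FPKM in MYO5B-knockout mouse 3, and at 98.9 to 175 FPKM in the other mice of both groups. Gcg was instead lowest in these 2 libraries, at 1.58 and 1.59 FPKM from 19 reads each, against 7.02 to 14.7 FPKM in the other mice of both groups. For Sct and Gcg the spread within groups thus followed the 2 libraries with few detected genes, and the direction of both fits turned with single libraries.

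**Figure D2:**
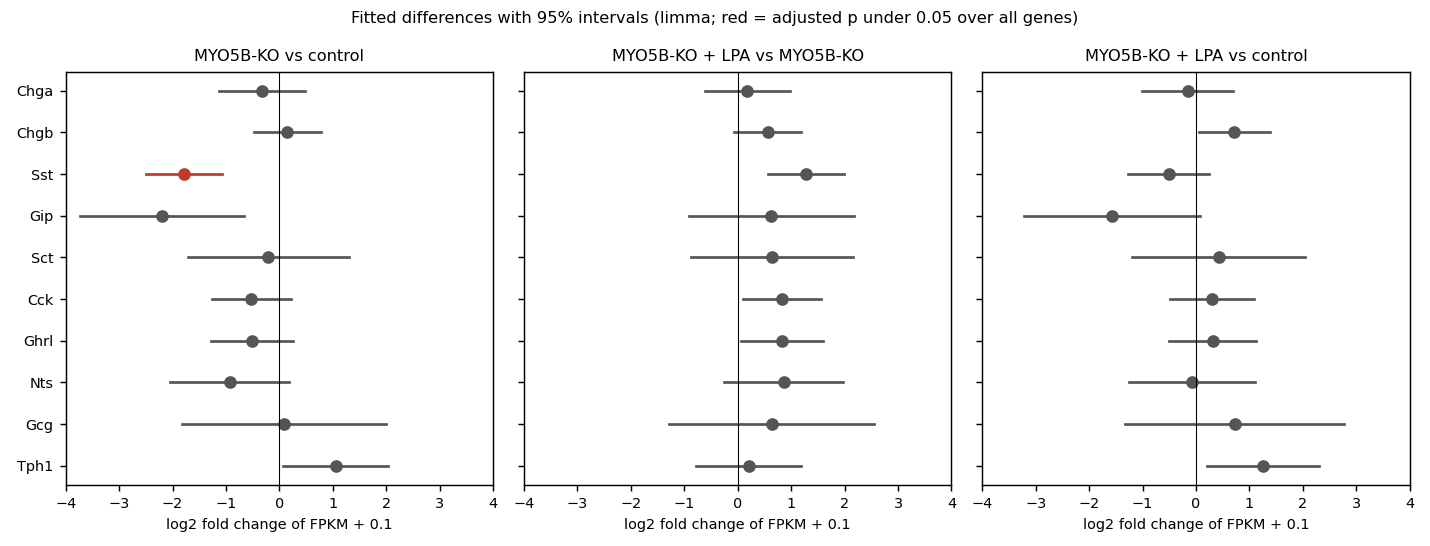
Log2 fold change of FPKM + 0.1 (horizontal axes) for each gene in the 3 comparisons, with points for the fitted value and lines for the 95% interval from limma. Red marks an adjusted p under 0.05, which is reached by Sst at -1.78 in MYO5B-knockout against control mice and by no gene in the other panels.

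LPA-treated MYO5B-knockout mice were compared with vehicle-treated MYO5B-knockout mice to ask what LPA changed after MYO5B loss. No member passed, and neither did any of the 15729 genes (0%) with limma. At an unadjusted p under 0.05 limma counted 459 genes (2.92%), among them Sst, Cck and Ghrl, and at the adjusted threshold edgeR counted 0 and DESeq2 7 genes, none of them members. All 10 members were fitted higher with LPA, as were 60.7% of all genes tested, with a median log2 fold change of 0.64 beside 0.11 for all genes. Gcg and Tph1 turned to -0.03 and -0.04 once control mouse 2 and MYO5B-knockout mouse 3 were removed. Both this comparison and the one before it use the 4 vehicle-treated MYO5B-knockout mice, so their values for the members are not independent.

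Sst measured 33.8, 57.1 and 77.1 FPKM in LPA-treated mice 1, 4 and 5, each above the highest vehicle-treated MYO5B-knockout mouse at 28.3 FPKM. The log2 fold change was 1.27 (standard error 0.32, 95% interval 0.56 to 1.99, limma's adjusted p = 1). Without LPA-treated mouse 1, whose labels conflict, it was 1.60 (limma's adjusted p = 0.29). Without LPA-treated mouse 4 it was 1.22, and without LPA-treated mouse 5, which held the highest value of the group, it was 1.00. Neither passed. Ghrl measured 28.8, 27.5 and 51.4 FPKM with LPA, above the 14.2 to 26 FPKM of the vehicle-treated mice (log2 fold change 0.83, limma's adjusted p = 1). Sst and Ghrl were the 2 members of 10 whose groups did not overlap, as for 4.16% of all genes tested. Ghrl overlaps the gene Gm26982 on the other strand, to which reads amounting to 20.5% of those of Ghrl were assigned. No source used here says whether strand entered the counting, so reads of the pair cannot be told apart, and none of the other 9 members overlaps a listed gene.

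Cck stood at 82.2, 148 and 192 FPKM in the LPA-treated mice, with mouse 1 inside and mice 4 and 5 above the vehicle-treated range (log2 fold change 0.83, 95% interval 0.09 to 1.56, limma's adjusted p = 1). The same arrangement, with mouse 1 low and mice 4 and 5 high, held for Chgb at 67.9, 106 and 102 FPKM and for Nts at 4.38, 13.7 and 11.8 FPKM. Sct stood at 155, 302 and 476 FPKM and Gip at 59.3, 81.4 and 284 FPKM, and for both the range crossed that of the vehicle-treated mice. Without LPA-treated mouse 5 the log2 fold change of Gip was -0.05 rather than 0.63. For Cck and Ghrl it was then 0.56 and 0.54, rather than 0.83 for both. Chga, at 20.8, 38.6 and 47.1 FPKM, Gcg, at 16.7, 10.6 and 6.28 FPKM, and Tph1, at 9.03, 12 and 5.92 FPKM, overlapped broadly with the vehicle-treated mice.

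Markers of other cell types also differed between these mice, though none passed limma's test with LPA against vehicle. The summed level of 9 genes of enteric neurons and glia was 2.9, 11.8 and 10.9 FPKM in LPA-treated mice 1, 4 and 5, against 1.55 to 5.37 FPKM in vehicle-treated MYO5B-knockout mice and 0.074 to 1.52 FPKM in the control mice. Glial Gfap, an intermediate filament gene, reached 2.53 and 1.98 FPKM in LPA-treated mice 4 and 5 and was at most 0.54 FPKM elsewhere. Neuronal Stmn2 stood at 0.759 and 0.828 FPKM in these 2 mice and at or below 0.244 FPKM elsewhere. S100b reached 7.17 and 5.56 FPKM in them, but also 3.79 FPKM in MYO5B-knockout mouse 5. Ret, by contrast, was highest in LPA-treated mouse 1, at 1.79 FPKM against 0.835 and 1.09 FPKM in LPA-treated mice 4 and 5. Enteric neurons can also express Sst, and the part of these cells in the LPA result was not tested. LPA-treated mouse 1 instead stood out in mast cell genes, with a sum of 92 FPKM against 5.98 and 7.83 FPKM in LPA-treated mice 4 and 5. Goblet cell markers summed to 10629 to 19886 FPKM with LPA, above the 6441 to 10585 FPKM of the vehicle-treated mice, and Paneth cell markers to 1057 to 4024 FPKM against 3501 to 6088 FPKM. The part of these secretory cells in the Sst and Ghrl values with LPA was not tested either. Pancreatic genes, whose islets also make somatostatin and glucagon, summed to at most 0.423 FPKM in any library.

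The summed level of 7 leukocyte markers was 25.3, 45 and 55.8 FPKM in the control mice and, like Sst, lower in each MYO5B-knockout mouse, at 4.44, 3.65, 10.4 and 19.8 FPKM. It was 13.5, 23.5 and 14.3 FPKM in the LPA-treated mice. Of these 7 genes, Cd79a of B cells fell in MYO5B-knockout against control mice (log2 fold change -3.16, limma's adjusted p = 0.0379), and Cd3g of T cells fell in LPA-treated against control mice (log2 fold change -3.18, limma's adjusted p = 0.0472). The call of Cd79a was lost without control mouse 2 or 5 or MYO5B-knockout mouse 5, 6 or 7, and that of Cd3g without any 1 of its 6 mice. With LPA against vehicle, 4 of these 7 genes were fitted higher, and limma called 0. Lyz2 measured 5.75, 15.3 and 11.2 FPKM with LPA against 0.916 to 2.24 FPKM with vehicle (DESeq2 log2 fold change 3.00, adjusted p = 0.000204). In the control mice Lyz2 measured 4.26 to 5.59 FPKM. Cd79a measured 0.876 to 1.51 FPKM with LPA against 0.0304 to 0.168 FPKM, whereas Cd3g overlapped, at 1.1 to 3.11 against 1.02 to 6.98 FPKM. The part of leukocytes in the Sst result was not tested. Summed markers of enterocytes ran from 17383 to 26229 FPKM in the control mice and from 9459 to 18424 FPKM in the MYO5B-knockout mice. Those of tuft cells ran from 7.27 to 21.8 and from 2.47 to 10.1 FPKM, and goblet and Paneth cell sums overlapped between these groups as well. The goblet cell gene Agr2 rose in LPA-treated against control mice (log2 fold change 1.92, limma's adjusted p = 0.0471), a call lost without any 1 of the 6 mice. With control mouse 2 and MYO5B-knockout mouse 3 removed, Agr2 also passed in MYO5B-knockout against control mice (log2 fold change 1.29, limma's adjusted p = 0.0348). With all libraries, 3 of the 6 goblet cell markers were fitted higher there, with a median of -0.09. Tuft cell Sh2d6 was called lower in that setting (-1.80, limma's adjusted p = 0.0367). With LPA against control mice, the same setting added Sh2d6, Sis and the Paneth cell genes Itln1, Ang4 and Defa24 as lower, and Cdh1 and Ret as higher. Of the tuft cell markers, DESeq2 with all libraries called Pou2f3 and Trpm5 in MYO5B-knockout against control mice. It called Pou2f3 and Sh2d6 with LPA against control mice.

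**Figure D3:**
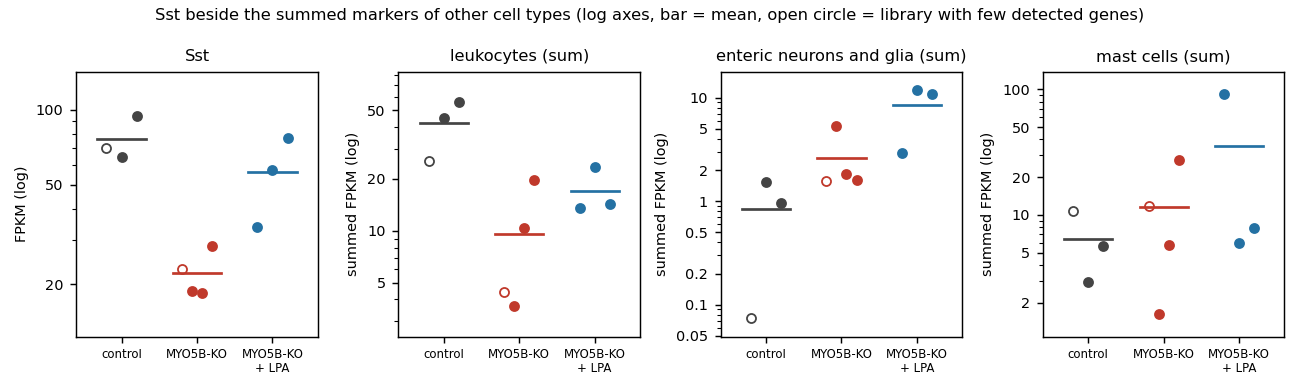
Sst (left, FPKM) beside the summed FPKM of 7 leukocyte, 9 enteric neuron and glia and 10 mast cell markers, each on a logarithmic vertical axis, with 1 circle per mouse, bars for group means and open circles for control mouse 2 and MYO5B-knockout mouse 3. The leukocyte sum is at or below 19.8 FPKM in the MYO5B-knockout mice and at or above 25.3 FPKM in the control mice, and the neuron and glia sum reaches 11.8 and 10.9 FPKM in LPA-treated mice 4 and 5 and is at most 5.37 FPKM elsewhere.

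Against control mice, no member passed the test in LPA-treated MYO5B-knockout mice, whereas 365 of all genes tested (2.32%) did. At an unadjusted p under 0.05 limma counted 2 members, Chgb and Tph1, beside 2582 of all 15729 genes tested. At the adjusted threshold edgeR and DESeq2 called 0 members. The median log2 fold change of the members was 0.30, beside 0.41 for all genes. Sst, at 33.8 to 77.1 FPKM with LPA and 64.8 to 94.3 FPKM in the control mice, overlapped again (log2 fold change -0.51, 95% interval -1.27 to 0.25, limma's adjusted p = 0.486). Gip stood at 59.3, 81.4 and 284 FPKM with LPA against 768, 183 and 256 FPKM in the control mice (log2 fold change -1.57, 95% interval -3.22 to 0.08, limma's adjusted p = 0.327). Chgb and Tph1 were the 2 members of 10 without overlap, both higher with LPA, in a comparison in which 26.9% of all genes did not overlap. Chgb was 1.64-fold higher on the fitted scale (log2 fold change 0.71, 95% interval 0.05 to 1.38, limma's adjusted p = 0.272). Tph1 was 2.39-fold higher (log2 fold change 1.26, 95% interval 0.21 to 2.31, limma's adjusted p = 0.219).

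Granins are shared by most enteroendocrine subtypes, so each hormone was also expressed relative to the summed FPKM of Chga and Chgb in the same mouse, a ratio chosen after the values were seen and given without a test. The sum of the 2 granins was 78.3, 96.8 and 105 FPKM in the control mice, 66.2, 115, 79.6 and 114 FPKM in the MYO5B-knockout mice and 88.7, 145 and 149 FPKM in the LPA-treated mice. The ratio of Sst to the granins was 0.67 to 0.902 in the control mice, 0.164 to 0.348 in the MYO5B-knockout mice and 0.381 to 0.517 in the LPA-treated mice, so the 3 groups were separate. The ratio of Tph1 was 0.0249 to 0.05 in the control mice and 0.0669 to 0.0981 in the MYO5B-knockout mice, also without overlap. In LPA-treated mice it ran from 0.0397 to 0.102 and met both. Before division, Sst overlapped between LPA-treated and control mice, at 33.8 to 77.1 and 64.8 to 94.3 FPKM. Chgb, a part of the divisor, did not, at 67.9 to 106 and 50.2 to 58.8 FPKM. How many of all genes would separate on this ratio was not counted. The ratios of Gip, Cck, Sct, Ghrl, Nts and Gcg overlapped between all 3 groups. Between the granins themselves, the ratio of Chgb to Chga was 1.28 to 1.79 in the control mice, 1.78 to 2.46 in the MYO5B-knockout mice and 2.16 to 3.26 in the LPA-treated mice.

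**Figure D4:**
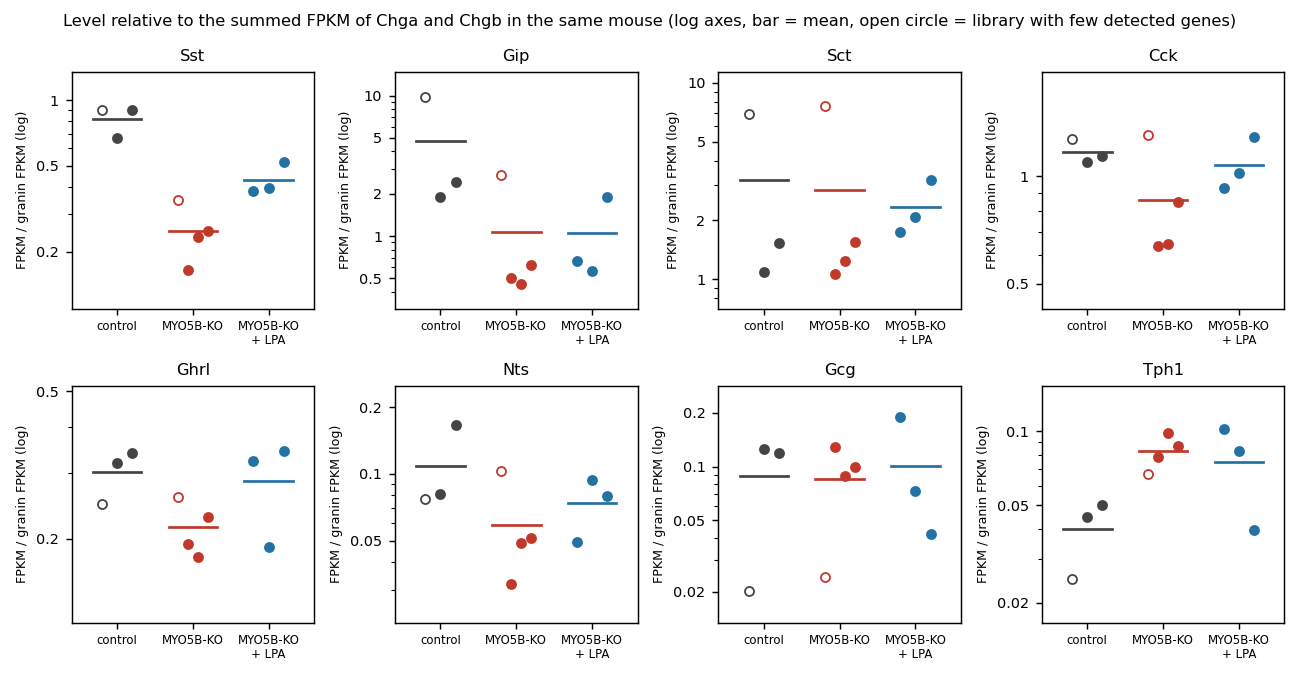
FPKM of each hormone gene and Tph1 divided by the summed FPKM of Chga and Chgb in the same mouse (logarithmic vertical axes), with 1 circle per mouse, bars for group means and open circles for control mouse 2 and MYO5B-knockout mouse 3. The groups are separate for Sst, with control mice at or above 0.67 and MYO5B-knockout mice at or below 0.348.

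Other genes of the hormone system were counted by list. Of 14 other hormone and peptide genes, 8 were high enough to test and 1 passed, Nucb2, which encodes nucleobindin 2, the precursor of nesfatin-1. Nucb2 measured 2.51, 2.92 and 1.97 FPKM in the control mice, against 7.97, 10.4, 10.3 and 14 FPKM in MYO5B-knockout mice 3, 5, 6 and 7. With LPA it measured 14.7, 17.5 and 14.7 FPKM in mice 1, 4 and 5, so that the 3 groups did not overlap. It rose in the MYO5B-knockout mice (log2 fold change 2.06, standard error 0.30, limma's adjusted p = 0.00961) and in the LPA-treated mice against control mice (log2 fold change 2.63, standard error 0.32, limma's adjusted p = 0.00328). Nucb2 is expressed in many cell types beyond enteroendocrine cells. The call in the MYO5B-knockout mice was lost without control mouse 5 (log2 fold change 1.91, limma's adjusted p = 0.0769) and with only these 2 groups in the fit (2.06, limma's adjusted p = 0.062). On the recovered reads DESeq2 called Nmb of this list as well in MYO5B-knockout against control mice.

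A further pair of peptide genes is named after their values were seen, and neither passed with all libraries. Tac1, the precursor of substance P made by enterochromaffin cells and neurons, measured 3.01 to 4.31 FPKM in the control mice, 4.06 to 9.34 FPKM in the MYO5B-knockout mice and 5.88, 12.8 and 20 FPKM in the LPA-treated mice (log2 fold change 1.69 with LPA against control mice, limma's adjusted p = 0.106). With MYO5B-knockout mouse 3 and LPA-treated mouse 1 left out, Tac1 passed in that comparison (2.17, limma's adjusted p = 0.04). Pyy, the peptide of distal L cells, measured 3.02, 10.8 and 10.5 FPKM in the LPA-treated mice, against 0.794 to 4.95 FPKM in the vehicle-treated MYO5B-knockout mice. In both genes LPA-treated mice 4 and 5, the 2 with the high glial genes, held the highest values of all libraries.

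Of 19 genes of granule proteins and prohormone processing, 18 were tested, and 1 passed. Stx1a, a syntaxin of the membrane fusion machinery for granule release, measured 0.251, 0.659 and 0.712 FPKM in the control mice, 1.22 to 2.29 FPKM in the MYO5B-knockout mice and 2.43, 2.85 and 3.64 FPKM in the LPA-treated mice. It rose in LPA-treated against control mice (log2 fold change 2.34, standard error 0.49, limma's adjusted p = 0.04) and did not pass in the MYO5B-knockout mice (1.64, limma's adjusted p = 0.0958), where it passed with DESeq2 (adjusted p = 0.00442) and in limma with control mouse 2 and MYO5B-knockout mouse 3 left out (1.42, adjusted p = 0.0411). The call with LPA against control mice was lost with any of the 6 mice of that comparison left out (limma's adjusted p up to 0.171), and the median of the list there was 0.82 beside 0.41 for all genes. On the recovered reads DESeq2 also called Pcsk1n and Vgf in MYO5B-knockout against control mice, and Stx1a and Vgf with LPA against control mice.

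All 8 genes of serotonin synthesis, storage and uptake were tested, and 1 passed limma's test with all libraries, Gch1, which makes the cofactor that tryptophan hydroxylase needs. On the recovered reads DESeq2 called Ddc and Maob in MYO5B-knockout against control mice. It called Ddc, Gch1 and Maob with LPA against control mice. Gch1 measured 16.5, 22.8 and 18.2 FPKM in the control mice, 31.7 to 54 FPKM in the MYO5B-knockout mice and 48.4, 74.6 and 41.4 FPKM in the LPA-treated mice. It rose in LPA-treated against control mice (log2 fold change 1.48, standard error 0.32, limma's adjusted p = 0.0437), a call lost without any 1 of the 6 mice and with median-ratio scaling (1.10, limma's adjusted p = 0.116). With control mouse 2 and MYO5B-knockout mouse 3 left out, limma also called Maob, a monoamine oxidase, lower in both comparisons with control mice (-2.91, adjusted p = 0.0358, and -3.74 with LPA, adjusted p = 0.0121), and Maoa lower with LPA (-1.67, adjusted p = 0.0362). Of the 8 genes, 3 were fitted higher in that comparison, with a median of -0.38.

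Of 17 nutrient sensors and excitability genes, 10 were tested, and 1 passed. Slc5a1, the sodium-glucose cotransporter that enterocytes also express in quantity, measured 564, 1012 and 957 FPKM in the control mice, 271 to 433 FPKM in the MYO5B-knockout mice and 198 to 295 FPKM in the LPA-treated mice. It fell in LPA-treated against control mice (log2 fold change -1.79, standard error 0.34, limma's adjusted p = 0.0284) and had a value of -1.25 in the MYO5B-knockout mice (limma's adjusted p = 0.0744), which passed with control mouse 2 and MYO5B-knockout mouse 3 left out (-1.42, limma's adjusted p = 0.0381). With LPA against control mice, Ffar3 and Slc15a1 were also called in that setting (-2.50 and -2.44, limma's adjusted p = 0.0173 and 0.045). On the recovered reads of all libraries DESeq2 called Slc15a1 and Slc5a1 in MYO5B-knockout against control mice, and these and Ffar3 with LPA against control mice. Slc5a1 overlaps other listed genes, so part of its reads may be theirs. The call with LPA was lost with only the 2 groups in the fit (limma's adjusted p = 0.0795) and without any 1 of control mice 4 and 5 and the 3 LPA-treated mice.

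**Figure D5:**
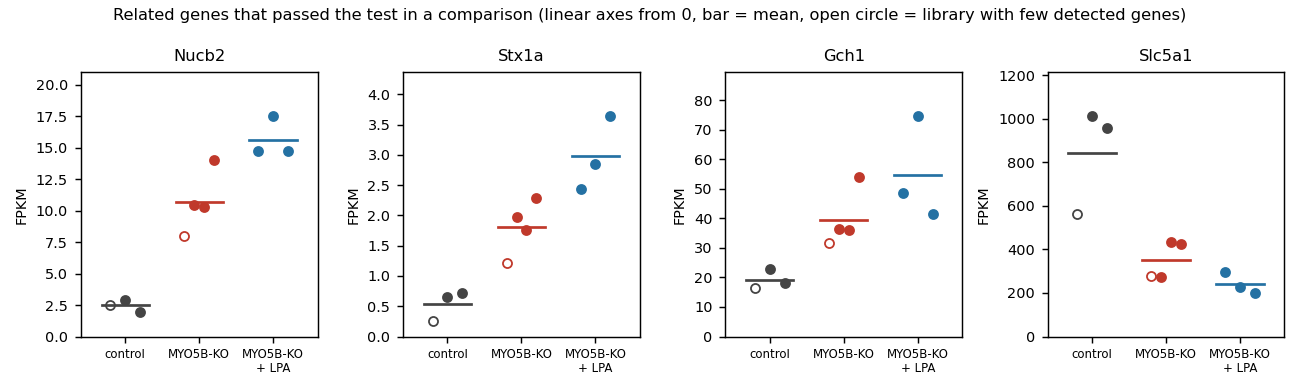
FPKM (vertical axes, linear from 0) of Nucb2, Stx1a, Gch1 and Slc5a1 in each mouse, with bars for group means and open circles for control mouse 2 and MYO5B-knockout mouse 3. Nucb2 is at 1.97 to 2.92 FPKM in the control mice, against 7.97 FPKM or more in all knockout mice, while Slc5a1 runs the other way.

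None of the hormone receptors, hormone-degrading peptidases or transcription factors passed limma's test with all libraries in any of the 3 comparisons. With control mouse 2 and MYO5B-knockout mouse 3 left out, limma called 0 receptors, the peptidase Thop1 (1.56, adjusted p = 0.0327) and the transcription factor Foxa1 (1.60, adjusted p = 0.0231) in MYO5B-knockout against control mice. With LPA against control mice it then called Thop1 (1.84, adjusted p = 0.0142), Ace (-3.95, adjusted p = 0.0317), Dpp4 (-2.41, adjusted p = 0.0283), Mme (-3.39, adjusted p = 0.0385) and Foxa1 (1.41, adjusted p = 0.0227). On the recovered reads DESeq2 counted 2 peptidases, Ace and Anpep, in MYO5B-knockout against control mice. With LPA against control mice DESeq2 counted 3 peptidases, 1 receptor (Gcgr) and 1 transcription factor (Foxa1), and edgeR 1 peptidase. With LPA against vehicle both tools counted 0. Of 18 receptor genes 7 were tested, with 0, 0 and 1 at an unadjusted p under 0.05 by limma in the 3 comparisons. Of all 15729 genes tested, 2764, 459 and 2582 were below that p. The highest receptor gene, Sort1, which binds neurotensin, measured 4.42 to 11.3 FPKM. The somatostatin receptor Sstr5 was at or below 0.454 FPKM in every library. The 8 peptidases, of which 2, 0 and 4 were below that unadjusted p, include Dpp4, which inactivates the incretins, at 21.5, 142 and 138 FPKM in the control mice, against 5.81 to 82.7 FPKM in the MYO5B-knockout mice, and Ace, at 165, 307 and 403 FPKM in the control mice, against 13.8 to 128 FPKM in the MYO5B-knockout mice (log2 fold change -2.77, limma's adjusted p = 0.0957). Ace passed with median-ratio scaling (-3.06, limma's adjusted p = 0.0447). Both are brush border enzymes of enterocytes, and Anpep, a marker of those cells, stood at 1572 to 2072 FPKM in the control mice and 346 to 1499 FPKM in the MYO5B-knockout mice.

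Of 16 enteroendocrine transcription factors 14 were tested. At an unadjusted p under 0.05 limma counted 0 of them in MYO5B-knockout against control mice, 0 with LPA against vehicle and 2 with LPA against control mice. Of all 15729 genes tested, it counted 2764, 459 and 2582 in the same order. Foxa1 was highest, at 0.568, 2.81 and 2.13 FPKM in the control mice, 1.15 to 9.71 FPKM in the MYO5B-knockout mice and 6.19 to 7.23 FPKM in the LPA-treated mice (log2 fold change 2.05 with LPA against control mice, limma's adjusted p = 0.22). Neurod1, which acts late in the lineage, was at or below 2.23 FPKM in every library, and Insm1 at or below 2.6 FPKM. For Insm1 the log2 fold change in MYO5B-knockout against control mice was 1.24 (95% interval -1.03 to 3.52).

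For the 4 members highest in the control mice, the genes with the most similar pattern over the 10 libraries were found by the root mean square difference of centred log2 levels. For Sst they were Cd52, an antigen of lymphocytes, at 0.32, Csf1, a macrophage growth factor, at 0.34 and Adam15, a membrane protease, at 0.36. Cd52 measured 14.8 to 16.8 FPKM in the control mice, 3.52 to 7.29 FPKM in the MYO5B-knockout mice and 9.62 to 11.8 FPKM in the LPA-treated mice. For Gip they were Gm2830 at 0.37, A4galt at 0.38 and Ly6g6d at 0.39. For Sct they were Romo1 at 0.18, Atp6v0b at 0.20 and Txnl4a at 0.24, and for Cck Cox7a2 at 0.19, Trappc2l at 0.22 and Uqcr10 at 0.24. Cox7a2 and Uqcr10 are subunits of the respiratory chain.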

How the data were processed

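RNA-seq of jejunal epithelial cells from 10 mice was analysed in 3 groups taken from the labels (3 control, 4 MYO5B-knockout, 3 LPA-treated MYO5B-knockout). The authors deposited FPKM per gene for every mouse, made from poly(A)-selected libraries. The submitters' processing notes name STAR 2.5, TopHat, HTSeq 0.6.1, DESeq2 and the builds GRCm38 and mm10, without their roles. A smaller table that the authors deposited holds counts of reads for selected genes together with their own fold changes and p-values. Its counts served to check the recovered reads, and its comparison columns were not used.

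FPKM times gene length gave whole reads, with 138996 of 138996 values of 1 to 1000 reads within 0.01 of a whole number and 63 of 63 deposited counts equal to the recovered number. FPKM is relative to reads on genes, so an excess of mitochondrial reads lowers every other gene. Log2 of FPKM + 0.1 was fitted for 15729 genes, whose mean over all libraries was 0.1 FPKM or more, in 1 limma model of 3 groups (limma 3.58.1, R 4.3.3, trended variance, two-sided), with Benjamini-Hochberg adjustment over all genes tested and 95% intervals. Fold changes on this scale understate changes of low genes. The fit was tested on simulated data. Alternatives were pseudocounts of 1 and 0.01, no filter, median-ratio and quantile scaling, 2-group fits, leaving out libraries, a replicate block, and edgeR 4.0.16 and DESeq2 1.42.0 on the recovered reads. Each library is 1 mouse, so p-values measure the spread between mice.

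The members, gene lists and tests were chosen with earlier results of these data known. Named from each list were the genes that passed in any comparison (at most 4, by size of change) or, where none passed, some of the 4 with the highest mean, and the 3 genes nearest in pattern to each of the 4 highest members. Tac1, Pyy, Cd52, genes called only with libraries left out or only by DESeq2, and single marker genes were added after their values were seen. Promoters came from RefSeq tables (GRCm38.p6, all 10 members matched, the start nearest to that of the deposited table used), and the Sst codons from GENCODE transcripts of GRCm38. Some items of the marker lists are not reported here and were left out of the summed levels.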

Additional observations from a re-analysis of the deposited data

How the results depend on the processing

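Sst was the 1 member called between MYO5B-knockout and control mice, and it had a negative log2 fold change under every alternative. The number of members called was 0 with only the 2 groups in the fit, where the adjusted p of Sst was 0.0537, 2 with DESeq2 on the recovered reads, which added Gip, and 0 to 1 with each mouse left out. In the other 2 comparisons it was 0 under every alternative run. Over all alternatives, 157 of 170 member values kept their direction in MYO5B-knockout against control mice, 161 of 170 with LPA against vehicle and 156 of 170 with LPA against control mice, and the cause of the others was not tested.

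Between MYO5B-knockout and control mice, Chgb turned to -0.14 with median-ratio scaling, -0.11 with edgeR and -0.15 with DESeq2. Gcg turned to -0.20, -0.23 and -0.26 in these and to -0.18 with quantile normalization. It turned to -0.21 when control mouse 2 and MYO5B-knockout mouse 3 were left out. With these 2 left out, Gcg and Tph1 turned to -0.03 and -0.04 with LPA against vehicle, and Gcg to -0.24 and Cd79a to 0.10 with LPA against control mice. Without MYO5B-knockout mouse 3 and LPA-treated mouse 1, Gcg and Tph1 turned to -0.37 and -0.07 with LPA against vehicle, and Chga and Nts to 0.19 and 0.43 with LPA against control mice. In that last comparison Sct turned to -0.33 with edgeR and -0.40 with DESeq2, and Cck and Ghrl to -0.08 and -0.06 with median-ratio scaling. With each mouse left out, the log2 fold changes that turned ran from -0.71 to 0.48 for Sct and -0.88 to 0.75 for Gcg between MYO5B-knockout and control mice. With LPA against vehicle they ran from -0.07 to 0.52 for Chga, -0.05 to 1.08 for Gip, -0.03 to 1.01 for Gcg, -0.04 to 0.47 for Tph1 and -0.90 to 0.04 for Cd3g. With LPA against control mice they ran from -0.40 to 0.19 for Chga, -0.07 to 1.12 for Sct, -0.24 to 1.21 for Gcg, -0.39 to 0.43 for Nts and -1.23 to 0.10 for Cd79a.

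Mouse numbers 4 and 5 occur in both control and LPA-treated mice, and no label says that a number marks a shared litter or day. Deviations from the group means correlated at 0.104 for number 4 and -0.355 for number 5 over 15729 genes. Number 5 also occurs in a vehicle-treated MYO5B-knockout mouse, whose deviations correlated at 0.3 with control mouse 5 and -0.214 with LPA-treated mouse 5. Deviations within such small groups depend on one another, so these correlations cannot decide whether a number marks a shared litter or day. With a replicate block for these numbers, 0 members and 0 of all genes were called (3741 at an unadjusted p under 0.05), and Gcg and Nts turned to -0.58 and 0.12.

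The 316 genes called between MYO5B-knockout and control mice became 50 with the 2-group fit, 188 without the filter, 598 with median-ratio scaling, 804 with quantile normalization, 778 with those 2 mice left out and 1830 with DESeq2, and 44 to 403 with each mouse left out (lowest without control mouse 5). The 365 called with LPA against control mice became 190, 259, 490, 626, 1346 and 1489 in the same order, and 73 to 329 with each mouse left out (lowest without LPA-treated mouse 5). Depth limits Gcg most among the members, with 19 reads in 2 libraries.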
